A study of Mus musculus with 6 samples.

Results

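AMP-activated protein kinase (AMPK) was followed here through the RNA of its 7 subunit genes and of 2 kinases that activate it, in injured Achilles tendon of neonatal mice. The 9 genes were taken by name: the catalytic subunits Prkaa1 (AMPKα1) and Prkaa2 (AMPKα2), the scaffold subunits Prkab1 and Prkab2, the nucleotide-binding subunits Prkag1, Prkag2 and Prkag3, and the upstream kinases Stk11 (LKB1) and Camkk2. All 9 were measured, among 18099 genes, and they held 44 of the 65053 RefSeq transcripts in the table. RNA was sequenced from the repair tissue of 3 control mice and 3 LysM-Cre; Ampkα1fl/fl mice, collected a week after the tendon was cut. The controls were littermates that, by the study's methods, carried the floxed Ampkα1 allele without Cre. In the other group, Cre is expressed from the lysozyme M locus, which is active in macrophages and other myeloid cells. Prkaa1 is therefore meant to be deleted in those cells, while the RNA came from the whole tissue. The study reports that genotyping PCR and western blotting showed the knockout in DNA and in protein. The comparison asks what this deletion left of the AMPK genes in the tissue. The groups also differed in the presence of Cre and in RNA of the lysozyme M gene Lyz2, given below. These differences cannot be told apart from the deletion in this design. The sources used here do not name the floxed exon, and the table has no counts per exon.

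AMPK is a heterotrimer of an α, a β and a γ subunit that senses the energy state of the cell. The γ subunit binds adenine nucleotides, the β subunit joins the complex and binds glycogen, and the α subunit carries the kinase domain. LKB1, with its partners, and CaMKK2, in response to calcium, phosphorylate a threonine in the activation loop of the α subunit, which then phosphorylates enzymes of lipid, glucose and protein metabolism. In macrophages AMPKα1 is the main catalytic form, whereas AMPKα2 and the γ3 subunit are known from skeletal muscle.

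The activation loop is shown for both catalytic genes because it is the stretch that LKB1 and CaMKK2 act on, and because it shows how far reads of Prkaa1 and Prkaa2 can be told apart. It was read from the GENCODE transcripts of GRCm38, 5′ to 3′ on the coding strand, from the DFG to the APE motif. In both genes it spans exons 4 and 5 of 9. Capitals mark the bases that differ between the genes.
Prkaa1 (chr15:5168706-5170002, + strand, intron removed): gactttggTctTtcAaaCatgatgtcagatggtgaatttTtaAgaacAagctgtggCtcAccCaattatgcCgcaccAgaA
Prkaa2 (chr4:105049348-105051208, - strand, intron removed): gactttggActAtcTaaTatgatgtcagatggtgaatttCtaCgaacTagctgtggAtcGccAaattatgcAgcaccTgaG
The loops differ at 13 of 81 bases and encode the same residues. Over the whole coding sequence, Prkaa1 and Prkaa2 were identical at 70.5% of aligned bases, and their longest shared run was 35 bases. No window of 50 bases in a transcript of Prkaa1 or Prkaa2 occurred in a transcript of another gene.

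The libraries held between 18076805 and 19479880 estimated reads. Lyz2, the gene of the Cre locus, checked the labels: it had 7378, 7778 and 7372 reads in the control libraries and 9, 15 and 8 in the LysM-Cre libraries (log2 fold change -9.46, SE 0.17, adjusted p = 3.41e-06 in edgeR's quasi-likelihood test). Lyz1 is a close paralogue, and whether reads were split between them was not tested. The edgeR test called 128 of 14261 genes at an adjusted p under 0.05, which is 0.898% of those tested. The fit blocked by replicate number called 47 genes, and DESeq2 called 685. The libraries differed in skeletal muscle RNA. Levels are given in CPM, which are reads scaled to the library total with edgeR's TMM factor. The summed level of 20 muscle markers was 266, 806 and 4409 CPM in control libraries 1 to 3. It was 4706, 1451 and 12650 CPM in LysM-Cre libraries 1 to 3, with no marker at 0 in every library. All 20 had a positive fold change, and 0 of 20 passed edgeR's adjusted threshold or an unadjusted p under 0.05, and 0 passed in DESeq2. Of 14 macrophage markers 12 were lower in the LysM-Cre group, with summed levels of 1269 to 1323 CPM in control and 843 to 1079 CPM in LysM-Cre libraries. None of the 14 passed edgeR's adjusted threshold, and DESeq2 called 3. An unadjusted p under 0.05 in edgeR was found for 8 lower markers and 1 higher, where 14.5% of all genes had one. Neutrophils, the other abundant myeloid cells, had little RNA in either group: the summed level of 10 markers was 10.4 to 49.6 CPM in control and 12.3 to 51.7 CPM in LysM-Cre libraries, and of the 6 tested, 0 were called by edgeR or DESeq2 and 0 had an unadjusted p under 0.05 in edgeR. Of 6 erythroid markers 5 were called lower by edgeR (summed level 1659 to 2381 CPM against 551 to 806 CPM), 5 by DESeq2 and 1 in the fit blocked by replicate number. All 6 endothelial markers were lower (625.6 to 665.5 CPM summed in control and 548 to 622 CPM in LysM-Cre libraries); edgeR called 0, 2 had an unadjusted p under 0.05 and DESeq2 called 2. Of 11 tendon fibroblast markers, which together made up 117200 to 137300 CPM, 1 was called, Dcn, which encodes decorin, and it was lower, a call that the blocked fit did not keep, and DESeq2 called 2. Fewer cells of a type and less RNA per cell cannot be told apart in bulk tissue.

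Prkaa1, the floxed gene, was not detectably lower in the tissue. It had 740, 688 and 690 reads in the control libraries and 626, 751 and 652 in the LysM-Cre libraries. On the CPM scale this was 39.2, 37.6 and 37.8 against 32.6, 40.6 and 35.2. The groups overlapped, since LysM-Cre library 2 had the highest level of all and LysM-Cre libraries 1 and 3 lay below every control. The mean was 38.2 ± 0.842 CPM in control and 36.2 ± 4.07 CPM in LysM-Cre libraries (SD, n = 3 each). The log2 fold change was -0.08 (SE 0.09, 95% interval -0.29 to 0.13), and edgeR's adjusted p was 0.744. This interval covers a level between 0.819 and 1.09 times that of the controls, so a loss of more than this was outside it. An exact two-sided permutation test over the 6 libraries gave p = 0.5, where the smallest p this design allows is 0.1. The macrophage markers were lower in the same group, and their part in the Prkaa1 value was not tested.

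**Figure D1:**
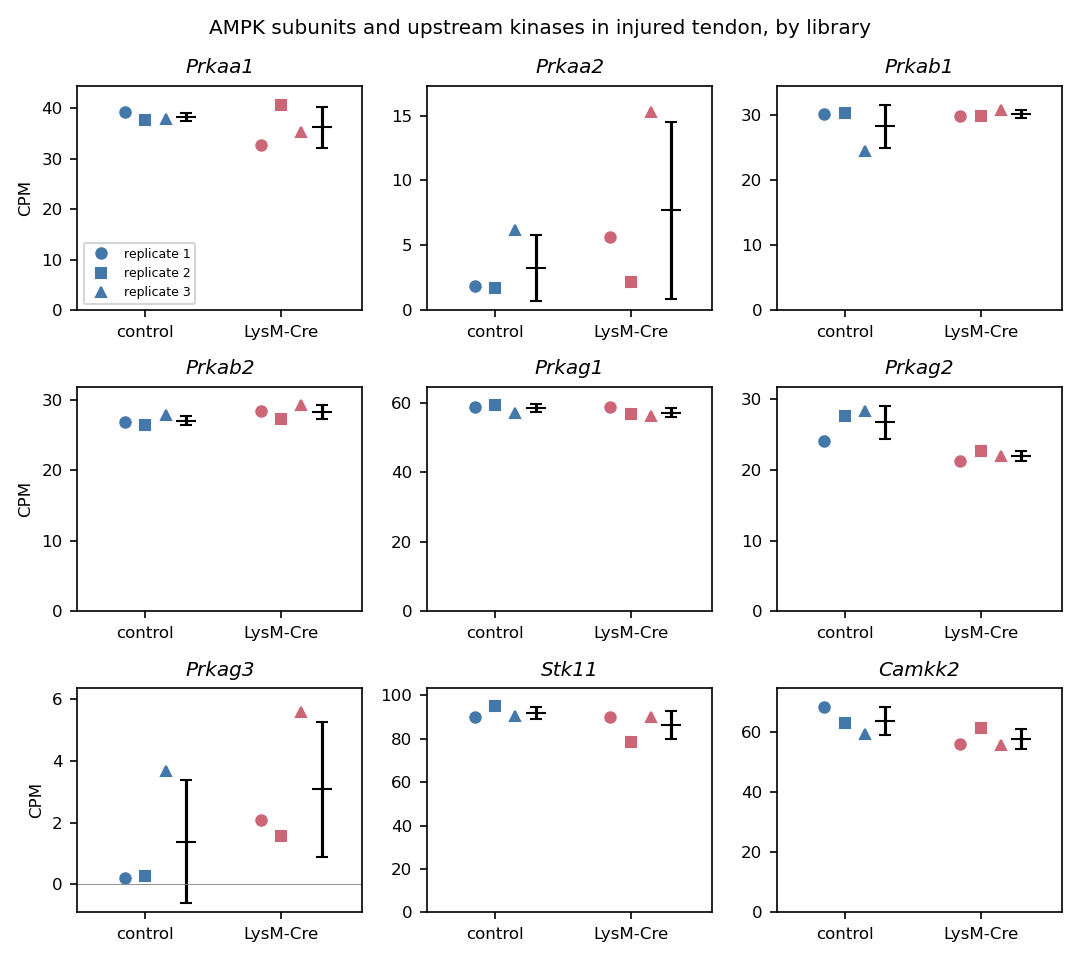
Level of the 9 genes in each library, in CPM on a linear axis, for 3 control (blue) and 3 LysM-Cre (red) libraries. Marker shapes give the replicate number, and black bars give the mean and SD. Prkaa1 overlaps between the groups, Prkag2 is lower in each LysM-Cre library, and Prkaa2 and Prkag3 are highest in LysM-Cre library 3.

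The transcript mix of Prkaa1 was examined because a deleted exon could move reads between its transcripts. Prkaa1 lies at chr15:5143861-5181899 on GRCm38.p6 and has 3 transcripts in the table. Its main transcript, NM_001013367, with 9 exons and 1677 coding bases before the stop codon, took 674, 657 and 664 reads in the control libraries. In the LysM-Cre libraries it took 602, 649 and 591. On these reads, before scaling, each LysM-Cre library lay below each control. In TPM the groups overlapped, with 16.7, 16.0 and 16.9 in control and 14.3, 16.7 and 14.3 in LysM-Cre libraries, where LysM-Cre library 2 lay above control libraries 1 and 2. Its log2 fold change was -0.14 (SE 0.07), with an unadjusted p of 0.0995 that edgeR adjusted to 0.941 over all transcripts tested. The second transcript, NM_001355640, took 65.6, 30.6 and 0 reads in control and 24.3, 102 and 61.3 in LysM-Cre libraries, with a log2 fold change of 0.95 (SE 1.47, adjusted p = 1.0). The third, XM_011245321, was listed with 26.2 reads in control library 3 and 0 in the other 5 libraries.

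The share of Prkaa1 TPM (a level scaled to transcript length and library total) in the main transcript was 90.9%, 95.5% and 96.1% in control libraries. It was 96.0%, 86.2% and 90.4% in LysM-Cre libraries. The groups overlapped, and the exact two-sided permutation p was 0.4 (n = 3 each) for a difference of means of -3.31 percentage points, which was -0.961 without LysM-Cre library 2 and -5.90 without LysM-Cre library 1. A test of unequal change among its transcripts gave an adjusted p of 1.0 in edgeR.

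Prkaa2, the other catalytic gene, was low, and its spread within the LysM-Cre group was larger than the difference between the group means. It had 35, 30 and 112 reads in the control libraries and 108, 39 and 283 in the LysM-Cre libraries. In CPM this was 1.85, 1.64 and 6.14 against 5.63, 2.11 and 15.3. On this scale the means were 3.21 ± 2.54 and 7.68 ± 6.83 (SD, n = 3 each). Control library 3 and LysM-Cre library 3 were the highest of their groups, and the groups overlapped. The log2 fold change was 1.26 (SE 0.79, 95% interval -0.61 to 3.13, adjusted p = 0.526). Between libraries of the same replicate number, the LysM-Cre library was 3.04, 1.29 and 2.49 times the control. Ordered by Prkaa2, the highest 3 libraries were LysM-Cre 3, control 3 and LysM-Cre 1, the same 3 that had 4409 CPM or more of muscle markers.

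With the muscle marker score as a covariate, the Prkaa2 log2 fold change was -0.18 (adjusted p = 0.93). Without LysM-Cre library 3 it was 0.27 (adjusted p = 0.93), and without control library 3 it was 2.13 (adjusted p = 0.289). The share of Prkaa2 in the α subunit TPM was 2.56%, 2.38% and 8.22% in control and 8.70%, 2.76% and 19.5% in LysM-Cre libraries. The groups overlapped, with an exact two-sided permutation p of 0.2 (n = 3 each). Prkaa1 made up the rest, and so most, of the catalytic subunit TPM in every library. The summed α TPM was 18.4 ± 1.02 in control and 18.6 ± 2.0 in LysM-Cre libraries (SD, n = 3 each).

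Prkaa2 (chr4:105029649-105109898) has 2 transcripts, and which of them the reads were assigned to varied from library to library. NM_001356568 took 35 and 30 reads in control libraries 1 and 2, where NM_178143 was at 0. In control library 3, NM_001356568 had 1.09 reads and NM_178143 had 111. LysM-Cre library 1 was split into 52.1 and 55.9 reads, LysM-Cre library 2 had all 39.0 in NM_178143, and LysM-Cre library 3 had all 283 in NM_001356568. Each transcript had reads in libraries of both groups, and neither was called (adjusted p = 1.0 for both).

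**Figure D2:**
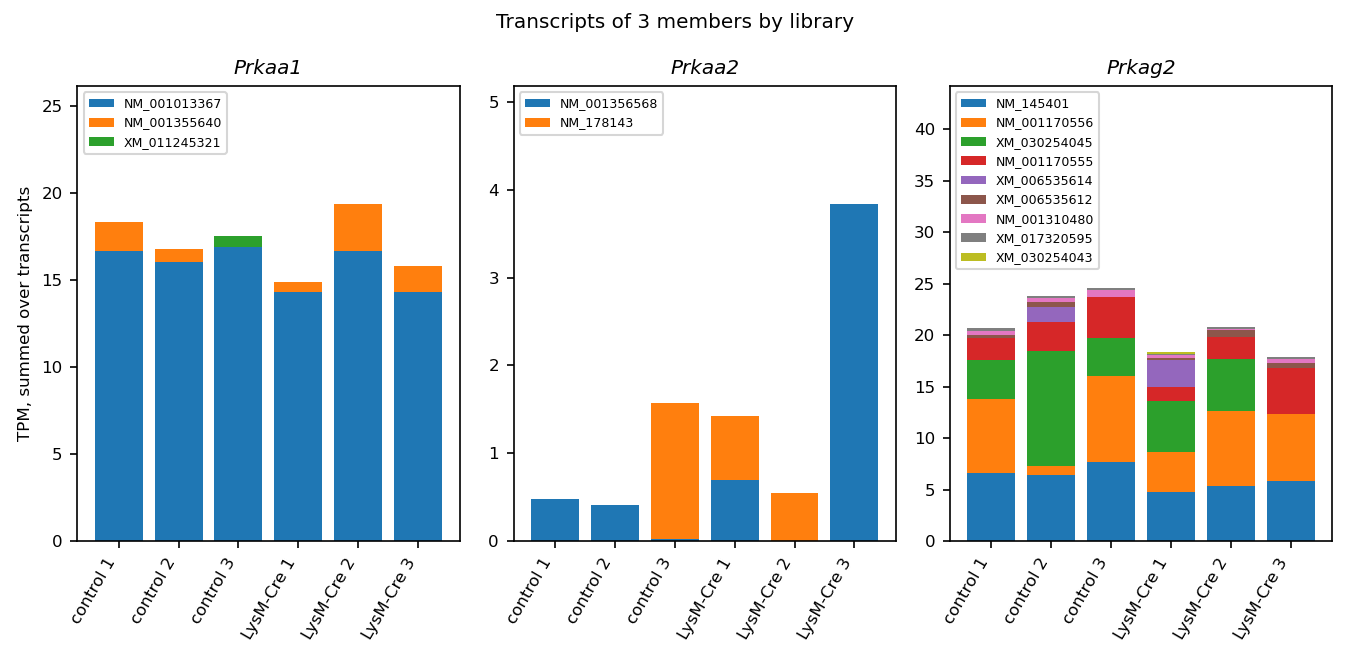
TPM of each transcript of Prkaa1, Prkaa2 and Prkag2 by library, stacked to the level of the gene. NM_001013367 makes up most of Prkaa1 in all 6 libraries, whereas Prkaa2 is assigned almost wholly to NM_001356568 in 3 libraries and to NM_178143 in 2.

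The scaffold subunits differed little between libraries at gene level, apart from Prkab1 in control library 3. Prkab1 (chr5:116013586-116024503) had 30.2, 30.3 and 24.6 CPM in control and 29.9, 29.9 and 30.9 CPM in LysM-Cre libraries. Control library 3 was the lowest and LysM-Cre library 3 the highest. The log2 fold change was 0.09 (95% interval -0.13 to 0.32, adjusted p = 0.713), and it was 0.00 without control library 3.

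Prkab2 (chr3:97658211-97673812) had 26.9, 26.4 and 27.8 CPM in control and 28.5, 27.3 and 29.2 CPM in LysM-Cre libraries. The groups overlapped, and the log2 fold change was 0.07 (95% interval -0.08 to 0.22, adjusted p = 0.693). Per length, Prkab1 was the larger, and Prkab2 made up 24.0% to 29.3% of the β subunit TPM in control and 25.2% to 26.0% in LysM-Cre libraries (exact two-sided permutation p = 1.0, n = 3 each). Prkab1 and Prkab2 were identical at 72.8% of aligned coding bases, and neither shared a window of 50 bases with another gene.

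Prkag1 was the most abundant member per length, and Prkag2 was the member with the smallest p. Prkag1 (chr15:98812797-98831508) had 58.9, 59.3 and 57.1 CPM in control and 58.8, 56.7 and 56.2 CPM in LysM-Cre libraries. Its log2 fold change was -0.03 (SE 0.05, 95% interval -0.14 to 0.08, adjusted p = 0.834), the narrowest interval of the 9. Of its transcript windows of 50 bases, 28.8% also occurred on the opposite strand in B130046B21Rik, and whether the counting used strand is not given in the sources used here.

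Prkag2 (chr5:24862735-25106282) had 456, 506 and 518 reads in control and 407, 420 and 407 in LysM-Cre libraries. In CPM this was 24.1, 27.6 and 28.4 against 21.2, 22.7 and 22.0. Each LysM-Cre library lay below each control. The mean was 26.7 ± 2.28 CPM in control and 22.0 ± 0.745 CPM in LysM-Cre libraries (SD, n = 3 each), a log2 fold change of -0.28 (SE 0.08, 95% interval -0.48 to -0.08). The unadjusted p was 0.0125 and edgeR's adjusted p 0.187, so Prkag2 did not pass the threshold, and the exact two-sided permutation p was 0.1, the smallest possible. An unadjusted p under 0.05 with a lower level was found for 8.55% of all genes tested, and groups that did not overlap with the LysM-Cre group lower for 11.4%. The fold change ran from -0.35 to -0.24 over the alternative settings. Antisense transcripts on the opposite strand, mainly Prkag2os2, shared 11.52% of its windows.

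Prkag2 is read from several starts, and the sequence before 3 of them is shown because the transcripts from each start were estimated separately. The 250 bases before each start are from RefSeq (GRCm38.p6, - strand, 5′ to 3′), with CpG dinucleotides in capitals.
Long form (chr5:25100643-25100892): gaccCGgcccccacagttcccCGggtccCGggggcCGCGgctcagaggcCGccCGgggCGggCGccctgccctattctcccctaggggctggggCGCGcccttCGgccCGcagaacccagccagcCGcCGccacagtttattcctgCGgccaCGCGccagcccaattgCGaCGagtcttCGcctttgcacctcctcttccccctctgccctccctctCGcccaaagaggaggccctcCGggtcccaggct
Middle form (chr5:24995754-24996003): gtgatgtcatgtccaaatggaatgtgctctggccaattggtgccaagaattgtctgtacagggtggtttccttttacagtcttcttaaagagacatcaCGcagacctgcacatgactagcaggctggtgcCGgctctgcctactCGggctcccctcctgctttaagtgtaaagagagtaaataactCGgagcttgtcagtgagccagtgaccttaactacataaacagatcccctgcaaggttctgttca
Short form (chr5:24908510-24908759): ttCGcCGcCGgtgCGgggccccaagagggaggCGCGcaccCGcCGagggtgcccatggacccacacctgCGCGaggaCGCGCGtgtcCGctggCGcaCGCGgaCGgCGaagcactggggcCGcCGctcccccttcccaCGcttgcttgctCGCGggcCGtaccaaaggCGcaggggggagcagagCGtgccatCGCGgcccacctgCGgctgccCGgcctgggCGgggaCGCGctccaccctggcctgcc
These windows hold 23, 4 and 34 CpG dinucleotides, against a median of 6 over 32851 mouse promoters of the same length, of which 92.1% hold at least 1. The long form, NM_145401, took 187, 182 and 209 reads in control and 139, 144 and 169 in LysM-Cre libraries, and its groups did not overlap in TPM either, where 6.68% of all transcripts tested were lower without overlap (log2 fold change -0.38, SE 0.17, adjusted p = 0.872). The middle form, NM_001310480, had the lowest level of these 3 forms, 0.17 to 0.67 TPM. It took 9.36, 10.4 and 15.4 reads in control and 5.18, 3.82 and 9.18 in LysM-Cre libraries, which did not overlap either, and did not pass the filter on low counts, so it was not tested. The short forms, NM_001170555 and NM_001170556, summed to 167, 66.2 and 216 reads in control and 98.5, 163 and 202 in LysM-Cre libraries, so their groups overlapped. Other Prkag2 transcripts were not placed at a start. The largest of them, XM_030254045, held 23.0% of Prkag2 TPM. Its reads were 65.0, 191 and 61.3 in control and 86.9, 82.7 and 0 in LysM-Cre libraries. Unequal change among the Prkag2 transcripts was not detected (adjusted p = 1.0 in edgeR).

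Prkag3 (chr1:74738922-74749471) was at the edge of detection in 2 of the 6 libraries. It had 4, 5 and 67 reads in control and 40, 29 and 103 in LysM-Cre libraries. In CPM this was 0.212, 0.273 and 3.67 against 2.09, 1.57 and 5.57. The highest libraries were LysM-Cre 3 and control 3, and the groups overlapped. Between libraries of the same replicate number, the LysM-Cre library was 9.86, 5.74 and 1.52 times the control. The log2 fold change was 1.15 (SE 1.03, 95% interval -1.30 to 3.59, adjusted p = 0.67). With the muscle covariate it was 0.04 (adjusted p = 0.987), blocked by replicate number it was 1.74 (adjusted p = 0.216), without control library 3 it was 3.63 (adjusted p = 0.134), and without LysM-Cre library 3 it was 0.40 (adjusted p = 0.94). Prkag2 and Prkag3 together made up 18.8% to 23.9% of the γ subunit TPM in control and 18.5% to 21.0% in LysM-Cre libraries (exact two-sided permutation p = 0.4, n = 3 each). Of its transcript windows of 50 bases, 1.02% also occurred in another gene. Prkag3 alone made up 0.15% to 2.53% and 1.16% to 4.05%.

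**Figure D3:**
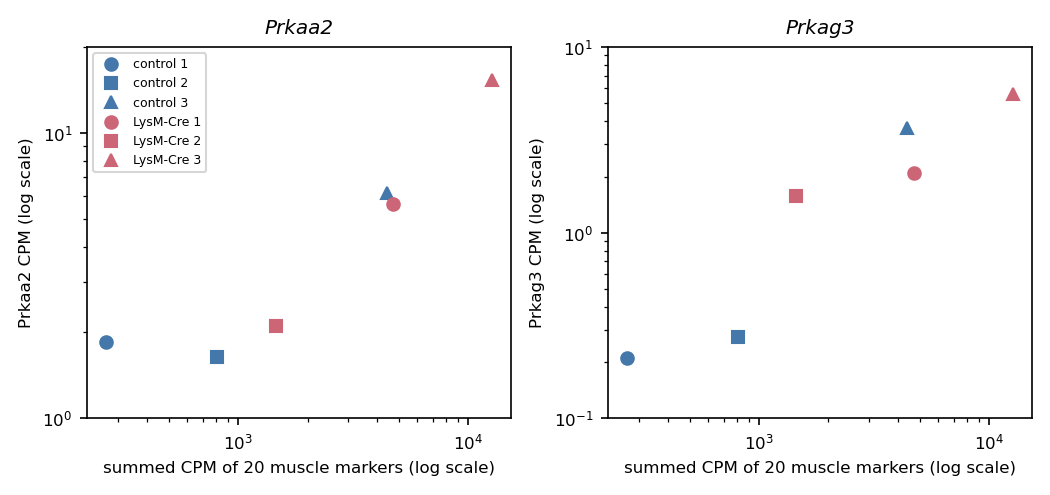
CPM of Prkaa2 (left) and Prkag3 (right) against the summed CPM of 20 skeletal muscle markers, both axes logarithmic, with 1 point per library. The 3 libraries with 4409 CPM or more of muscle markers (control 3, LysM-Cre 1 and LysM-Cre 3) have the highest level of both genes.

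Neither upstream kinase was called between the groups. Stk11 (chr10:80115767-80130679), which encodes LKB1, had 90.2, 94.9 and 90.6 CPM in control and 89.9, 78.7 and 90.2 CPM in LysM-Cre libraries. In CPM the groups did not overlap, but only just, since control library 1 and LysM-Cre library 3 both rounded to 90.2. LysM-Cre library 2 was the low one. In TPM the gap was clearer, with 82.4, 82.3 and 82.0 in control and 80.7, 73.5 and 79.4 in LysM-Cre libraries. The log2 fold change was -0.09 (SE 0.07, 95% interval -0.25 to 0.07, adjusted p = 0.601). The main transcript, NM_011492, made up 91.3% of its TPM. Its groups overlapped in reads but not in TPM, where 6.68% of all transcripts tested were lower without overlap. The Stk11 gene shares 246 bases with Cbarp on the opposite strand, which had 43 to 67 reads.

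Camkk2 (chr5:122718380-122779522), the calcium-activated kinase, had 68.6, 63.3 and 59.4 CPM in control and 56.0, 61.5 and 55.9 CPM in LysM-Cre libraries. LysM-Cre library 2 lay above control library 3, so the groups overlapped. The log2 fold change was -0.14 (SE 0.07, 95% interval -0.31 to 0.03, adjusted p = 0.439). With the muscle covariate it was -0.04 (adjusted p = 0.904). P2rx4, an ATP-gated channel gene, overlaps Camkk2 on the opposite strand over 11360 bases, with no shared transcript window, and had a log2 fold change of 0.04 (SE 0.11).

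Camkk2 had the most transcripts of the 9 genes, 12, and held the member transcript with the smallest p. XM_006530236 had 27.2, 27.1 and 99.9 reads in the control libraries and 0 in all 3 LysM-Cre libraries. Its unadjusted p was 0.00332 and edgeR's adjusted p 0.32, and it made up 1.6% of Camkk2 TPM. This transcript passed the filter on low counts only through its reads in the control libraries, so its p is not support for a difference. Another transcript, XM_006530230, had 67.1, 0 and 0 reads in control and 135, 0 and 131 in LysM-Cre libraries. How reliably reads were assigned among the 12 transcripts was not tested. The most abundant, NM_001199676, had 540, 574 and 317 reads in control and 449, 515 and 473 in LysM-Cre libraries, with a log2 fold change of -0.01 (SE 0.23). Unequal change among the Camkk2 transcripts had the smallest p of the members in that test, 0.0571 (adjusted p = 1.0 in edgeR).

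Counted over the members, edgeR called 0 of 9 genes, where 0.898% of all genes were called, and 1 of 9, Prkag2, had an unadjusted p under 0.05, where 14.5% of all genes did. In the fit blocked by replicate number 0 of 9 were called, where 47 of 14261 genes were. In that fit 3 members had an unadjusted p under 0.05, where 15.9% of all genes did. These were Prkaa2, Prkag2 and Prkag3, with adjusted p of 0.138, 0.196 and 0.216. DESeq2, which called 685 genes in all, also called 0 of 9, with 1 at an unadjusted p under 0.05. The share of all genes under that unadjusted p was not computed for DESeq2. The groups did not overlap for 2 of 9, Prkag2 and Stk11, against 20.4% of all genes. Of the 44 transcripts, 31 passed the filter on low counts. Of these, edgeR called 0 (0.00279% of all transcripts were called), and 1 had an unadjusted p under 0.05 (6.11% of all). That 1 was XM_006530236 of Camkk2, which passed the filter only through the control libraries. For unequal transcript change, 8 members had at least 2 transcripts to test, and edgeR called 0 of 8 (0.896% of all genes were called), with 0 at an unadjusted p under 0.05 (4.95% of all). By limma's diffSplice 0 of 8 were called and 0 had an unadjusted p under 0.05. The share over all genes was not computed for limma. Only 20 of the 44 transcripts had reads in every library, 23 were at 0 in some and 1 was at 0 in all.

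**Figure D4:**
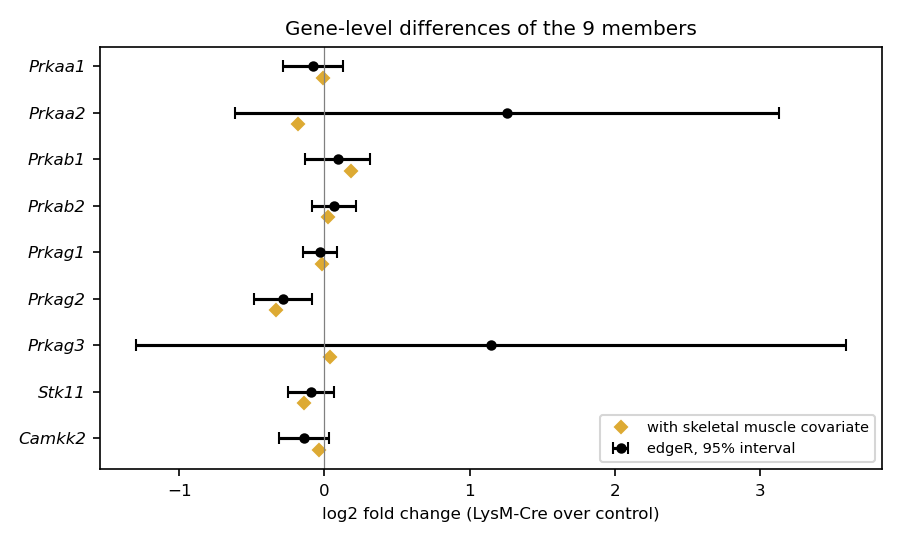
Log2 fold change of the 9 genes, LysM-Cre over control, with the 95% interval from edgeR (black, n = 3 against 3), and the estimate with the skeletal muscle covariate (yellow diamonds, no interval drawn). The interval of Prkag2, -0.48 to -0.08, is the only one that leaves out 0, and those of Prkaa2 and Prkag3 are the widest.

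Per length, the mean levels of the 9 members ran from 87.5 to 1.38 TPM. Prkag1 had 87.5 ± 2.42 TPM over the 6 libraries (SD), and Stk11 had 80.0 ± 3.42 TPM, with no overlap between them. Prkab1 (34.1 ± 2.61 TPM), Camkk2 (25.4 ± 2.41 TPM), Prkag2 (21.0 ± 2.73 TPM) and Prkaa1 (17.1 ± 1.63 TPM) followed, and each overlapped the next in range. Prkab2 (11.8 ± 0.505 TPM) stood below Prkaa1 without overlap, and Prkag3 (1.75 ± 1.59 TPM) and Prkaa2 (1.38 ± 1.31 TPM) were lowest and overlapped each other. Prkag1 was higher than 90.6% of all genes and Prkaa1 higher than 60.2%. Summed by subunit, the control libraries had 18.4 ± 1.02 TPM of α, 44.4 ± 3.25 TPM of β and 112 ± 2.20 TPM of γ, and the LysM-Cre libraries had 18.6 ± 2.0, 47.4 ± 0.619 and 108 ± 2.98 TPM (SD, n = 3 each).

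**Figure D5:**
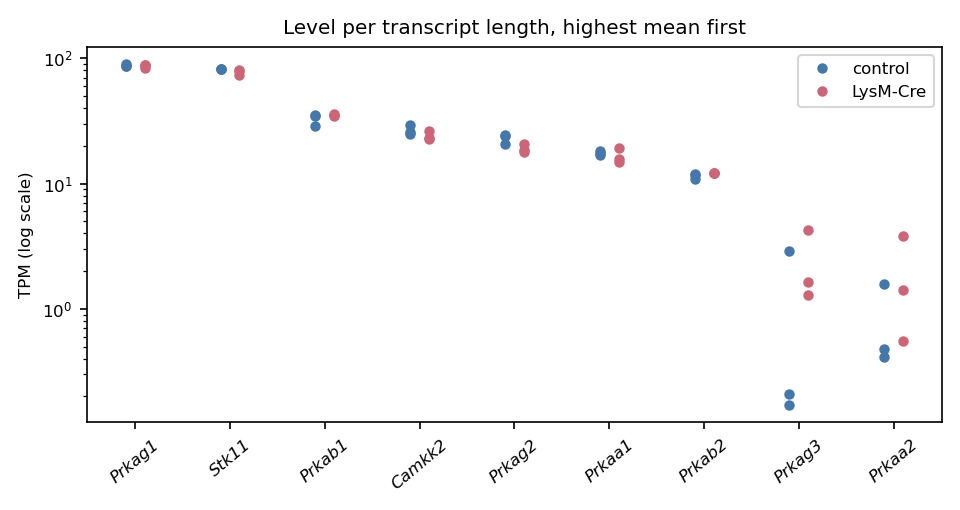
TPM of each library for the 9 genes on a log axis, ordered by the mean over 6 libraries, with control libraries in blue and LysM-Cre libraries in red. Prkag1 and Stk11 lie at 73.5 TPM or above in every library, and Prkag3 and Prkaa2 at 4.26 TPM or below.

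The genes whose levels ran most like those of the catalytic subunits were named by the Pearson r of log2 CPM over the 6 libraries, as a description over points that share tissue makeup, among 9922 genes with a mean of at least 10 CPM. For Prkaa1 these were Lgalsl (r = 0.995), Rrs1 (r = 0.992), Pvr (r = 0.989), Pafah1b2 (r = 0.986) and Snu13 (r = 0.986). Lgalsl had 69.4, 67.3 and 67.5 CPM in control and 57.9, 71.5 and 61.9 CPM in LysM-Cre libraries, so it too was highest in LysM-Cre library 2. For Prkaa2 they were Ksr1 (r = 0.997), Coq10a (r = 0.997), Camk2a (r = 0.991), Tmem8b (r = 0.991) and Sh3bgr (r = 0.989). With 6 points, 38 genes had an r over 0.95 with Prkaa1 and 118 with Prkaa2.

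No regulator of the pathway passed the threshold. Among 19 partners and regulators of the kinases (the LKB1 partners, calmodulins, phosphatases, folliculin complex and sestrins), edgeR called 0 of 19, 1 had an unadjusted p under 0.05 and DESeq2 called 0. Their median log2 fold change was 0.01, beside -0.002 over all genes. For this and the following lists, the share of all genes that edgeR called was 0.898%. An unadjusted p under 0.05 in edgeR was found for 14.5% of all genes. DESeq2 called 685 genes in all, where edgeR called 128. The largest differences were those of Ppm1e, a phosphatase that acts on AMPK (-0.51, SE 0.25, adjusted p = 0.425), Camkk1, the paralogue of Camkk2 (-0.18, SE 0.07, adjusted p = 0.338), and Fnip1, a partner of folliculin (0.17, SE 0.08, adjusted p = 0.361).

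Among 13 AMPK-related kinases, which LKB1 also activates apart from Melk, edgeR called 0, 3 had an unadjusted p under 0.05, all lower, and DESeq2 called 1. The median was -0.07. Melk, a kinase of dividing cells, had 14.4, 14.9 and 12.8 CPM in control and 7.93, 10.7 and 9.30 CPM in LysM-Cre libraries (log2 fold change -0.60, SE 0.13, adjusted p = 0.113). Mark4 (-0.35, adjusted p = 0.161) and Mark1 (-0.23, adjusted p = 0.28), kinases that act on microtubule-associated proteins, were also lower in each LysM-Cre library than in each control. Of all genes tested, 11.4% were lower without overlap.

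Of 11 genes for lipid and sterol targets of AMPK, edgeR called 1, lower, and 5 had an unadjusted p under 0.05 (2 higher, 3 lower), while DESeq2 called 3. The median was -0.21. The called gene was Srebf1, which encodes the transcription factor SREBP1 of fatty acid synthesis and was named after its values were seen. It had 70.1, 70.6 and 70.6 CPM in control and 55.4, 55.1 and 49.7 CPM in LysM-Cre libraries, so each LysM-Cre library lay below each control (log2 fold change -0.40, SE 0.06, adjusted p = 0.0412). In the fit blocked by replicate number its adjusted p was 0.0816 (log2 fold change -0.40), so the call was lost. The largest differences belonged to Cpt1b, the muscle form of carnitine palmitoyltransferase (1.70, SE 0.72, adjusted p = 0.347), Acacb, the mitochondrial form of acetyl-CoA carboxylase (0.72, SE 0.41, adjusted p = 0.488), and Lipe, hormone-sensitive lipase (-0.52, SE 0.33, adjusted p = 0.531). Cpt1b was highest in LysM-Cre library 3 (40.1 CPM), where the muscle markers were highest. With the muscle covariate these differences were 0.28, 0.02 and -1.03 (adjusted p = 0.836, 0.99 and 0.168).

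Among 10 autophagy and mTORC1 targets, edgeR called 0, 2 had an unadjusted p under 0.05, both higher, and DESeq2 called 2. The median was 0.07. Foxo3, a transcription factor of stress and autophagy genes (0.39, SE 0.12, adjusted p = 0.212), and Atg9a, a membrane protein of autophagosome formation (0.25, SE 0.06, adjusted p = 0.128), were higher in each LysM-Cre library than in each control. Over all genes, the groups did not overlap for 20.4%, in either direction. Ulk1, the kinase that starts autophagy, overlapped (0.17, adjusted p = 0.345). Of 9 glucose handling targets that could be tested among 10, edgeR called 0, 2 had an unadjusted p under 0.05 and DESeq2 called 0, with a median of 0.16. Slc2a4, the insulin-responsive glucose transporter, had a fold change of 0.60 (SE 0.54, adjusted p = 0.671), Gys1, muscle glycogen synthase, 0.41 (SE 0.24, adjusted p = 0.491), and Mlxipl, a glucose-responsive transcription factor, 0.35 (SE 0.75, adjusted p = 0.882). With the muscle covariate they were -0.41, 0.0067 and -1.0. Of 11 mitochondrial and transcription targets edgeR called 0, 1 had an unadjusted p under 0.05 and DESeq2 called 0, with a median of -0.01. Ppargc1a, a coactivator of mitochondrial genes (0.30, SE 0.42, adjusted p = 0.805), Crtc2 (-0.16, SE 0.08, adjusted p = 0.404) and Hdac5 (0.16, SE 0.11, adjusted p = 0.587) had its largest differences, and with the muscle covariate Ppargc1a was at -0.28 and Hdac5 at 0.04. These are RNA levels of the targets, and their phosphorylation was not measured in these libraries.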

How the data were processed

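Estimated counts of reads and TPM per RefSeq transcript were deposited by the authors for 6 libraries, 3 per group. The genome, GRCm38.p6, is from the submitters' processing notes; the aligner and counting tool are not given in the sources used here. Another 12 columns of per-sample values and 8 of averages were not used. For each gene the estimated counts of its transcripts were added and rounded. Tests used edgeR 4.0.16 in R 4.3.3, with its filter on low counts, TMM scaling and the quasi-likelihood F test, adjusted by Benjamini-Hochberg over all features (threshold 0.05), by transcript likewise, and for transcript usage with diffSpliceDGE. Intervals are 95%. DESeq2 1.42.0, limma 3.58.1, other scalings and filters, a muscle covariate and leaving out each library were alternatives. Exact two-sided permutation tests used log2(CPM + 0.5) or shares of TPM. P-values measure the spread between these 3 mice per group. Scripts were tested on simulated data. The labels give replicate numbers but do not say that same-numbered libraries are pairs. Deviations of same-numbered libraries from their group means had r = 0.184, 0.118 and 0.310. However, control 1 correlated best with LysM-Cre 2 (r = 0.50) and control 2 with LysM-Cre 3 (r = 0.127). The main fits and the permutation tests were unpaired, and a block by replicate number was run as an alternative. Members and gene lists were chosen with earlier results of these data known. Besides the members and Lyz2, the 3 genes with the largest difference in each list and the 5 most correlated with Prkaa1 and with Prkaa2 were named.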

Additional observations from a re-analysis of the deposited data

How the results depend on the processing

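No member was called at gene level under any alternative run for genes, except that Prkag3 was not tested with at least 10 reads in every library. For transcripts and transcript usage, RLE scaling, the 10-read filter, the replicate block and leaving out each library were run, with limma for usage, and these called no member. The number of genes called, 128, was 47 with the replicate number as a block, 75 with the muscle covariate, 685 with DESeq2, and 8 (without control library 2) to 276 (without LysM-Cre library 2) with a library left out, where the other four such counts also moved by over 1.5 times; the cause was not tested. Beside the calls given in the report (Srebf1, Dcn and the erythroid markers), the block changed no other call among members and named genes. Over all alternatives the Prkaa1 log2 fold change ran from -0.17 to -0.01. With the muscle covariate the direction turned for Prkaa2 (-0.18), Slc2a4 (-0.41), Mlxipl (-1.0) and Ppargc1a (-0.28), and without LysM-Cre library 3 for Slc2a4 (-0.065), Mlxipl (-0.38) and Ppargc1a (-0.0004), which without control library 3 were at 1.02, 1.05 and 0.79. Srebf1 also missed the threshold with upper-quartile scaling, the muscle covariate and in 5 of the 6 fits that left out a library. The difference in the Prkab2 share, -0.456 percentage points, ran from -1.48 to 1.15 with a library left out and turned without control library 3. With few reads for Prkag3 and 3 mice per group, small differences of low genes were not detectable.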
